A study of Drosophila melanogaster with 20 samples.

Results

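Binding of the ecdysone receptor EcR was compared between the wings and legs of wandering fruit fly larvae at every site of the deposited wing against leg table, 3463 sites, which are also all the sites of the series. The table was read beside the 4 disc peak lists, which hold 1442 wing and 1596 leg peaks from the supernatant and 1545 wing and 1010 leg peaks from the pellet. The libraries came from CUT&RUN, in which an antibody directs a nuclease to a chromatin protein and the DNA fragments it cuts free are sequenced. DNA that diffused into the supernatant and DNA that stayed in the pellet made separate libraries, 2 replicates each, so that each disc had 4 anti-Flag libraries. Salivary gland libraries of the same design entered the authors' other tables. They also entered the mean counts and the site set of this one, where 860 sites had a peak in gland lists alone.

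All these animals were female, raised at 25C, dissected 6 h before puparium formation and of the genotype w; EcR-GFSTF / Df(2R)BSC313. EcR-GFSTF carries a GFP-FlAsH-Streptactin-TEV-FLAG tag, so both discs share the tagged receptor and the deficiency, and no untagged control with the anti-Flag antibody was analysed here. At least 90 wings or legs were dissected, so a value is a mean over pooled discs, and legs are not separated by segment. In such bulk samples, binding in fewer cells and weaker binding per cell cannot be told apart. The 8 IgG libraries, 6 of them from wild-type wings, enter no site comparison here, but names of the peaks point to merged wing IgG as the control behind the peak lists.

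EcR is a nuclear receptor that binds DNA with its partner Ultraspiracle and is switched by the steroid hormone ecdysone. The pulse at the end of larval life acts through a first tier of transcription factor genes, such as Eip75B, Eip74EF and br, and starts metamorphosis. Wing and leg discs both respond by everting and elongating, but under different selector genes: ap and vg shape the wing, hth, Dll and disco-family genes the leg, and Ubx the haltere and the hindmost leg.

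Few sites were called different between wing and leg, and the called ones included sites at the identity genes Ubx, hth and ap. In the authors' deposited table, 49 of 3327 sites with an adjusted p-value passed 0.05, which is 1.47%. Values were higher in the wing at 19 sites (0.571%) and higher in the leg at 30 (0.902%). At an unadjusted p under 0.05 the same table held 136 sites higher in the wing and 302 higher in the leg. The whole table leaned to the leg: its median log2 fold change (wing over leg) was -0.18, and 2156 sites (62.3%) were below 0. Once the median of the chromosome arms (-0.19, a 1.14-fold higher leg value) was subtracted, the split turned to 48 higher in the wing and 17 higher in the leg. All 19 wing calls and 17 of the 30 leg calls were among them. The numbers of calls in the 2 directions are therefore not compared, and calls lost by centring are named below.

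The deposited table gives fitted values, not counts per library, so spread is shown by its standard error (SE), and values of single libraries cannot be printed. The median SE was 0.53 on the log2 scale. A site of that SE needed a log2 fold change of 1.79, or 3.46-fold, to be called. For 520 sites the 95% interval of the fold change lay within 1 log2 unit of 0, so a 2-fold difference lay outside it. Among the 938 sites with a peak in both supernatant lists this held for 382 (40.7%), and among the 1061 sites with a peak in 1 of them for 40 (3.77%). For the rest of the table, failing the threshold does not show equal binding.

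**Figure D1:**
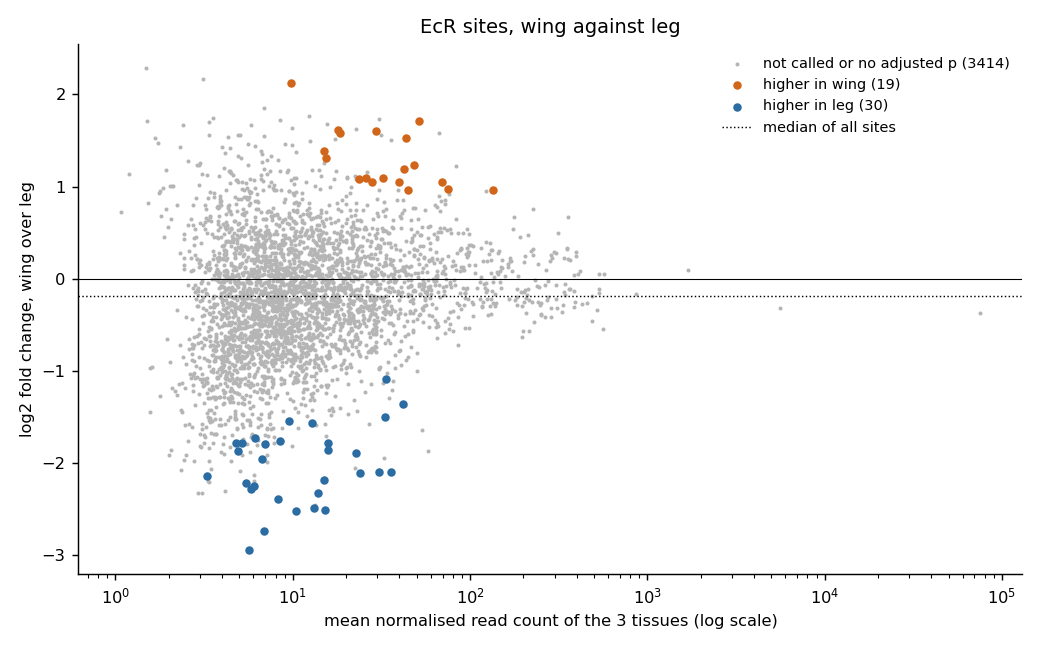
Log2 fold change of each of the 3463 sites (wing over leg, vertical axis) against its mean normalised read count over the 3 tissues (log scale), with sites higher in the wing in orange and sites higher in the leg in blue. Wing calls begin at a mean count of 9.84, leg calls at 3.28, and the sites with the highest counts lie close to the dotted median.

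The called sites differed in their mean read counts, which are taken over all 3 tissues, gland included. Sites higher in the wing had a median mean count of 32.4 (9.84 to 134), against 10.0 (3.28 to 41.8) for sites higher in the leg and 9.59 for all sites. All 19 wing-biased sites were at or above the table's median count, while 16 of the 30 leg-biased ones were. Their fold changes ran the other way. Wing-biased sites had log2 fold changes from 0.96 to 2.12, with a median of 1.19, and leg-biased sites from -2.94 to -1.08, with a median of -2.02. The median SE was 0.29 at wing-biased and 0.50 at leg-biased sites, so precision differed between the groups along with the counts.

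All 19 wing-biased sites had a wing peak in both fractions. By an overlap of at least 1 bp, 16 also had a leg supernatant peak and 7 a leg pellet peak. When the overlap had to cover 50% of site and peak, 8 were in both supernatant lists and 10 in the wing list alone. Median fold enrichments, which are the peak caller's own values within a list, were 14.7 in the wing supernatant list and 7.79 in the leg supernatant list at these sites. Of the 30 leg-biased sites, 25 had a supernatant peak in the leg list alone, 4 in both lists and 1 in neither. The 4 in both lists were those near CG34347 and in Glg1, CG17834 and psq. Classes and fold changes come from the same libraries, so these counts describe the sites and are no separate evidence.

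Sites higher in the leg included sites at the Hox gene Ubx, which gives the segment of the haltere and the hindmost leg its identity. Ubx (span chr3R:16656623-16734426, dm6) had 6 sites within 5 kb, all inside its span. Every one had a leg supernatant peak and none a wing supernatant peak. Of all 600 sites with a supernatant peak in the leg list alone, 30 were above 0. The shared sign of the Ubx sites is therefore no separate evidence. In the authors' deposited table the site at chr3R:16663517-16663898 was 5.01-fold higher in the leg (log2 fold change -2.32, SE 0.39, adjusted p = 1.54e-06). The other, at chr3R:16681667-16681868, was 6.66-fold higher (-2.74, SE 0.67, adjusted p = 0.00908 in the authors' deposited table). Both calls held after centring. The other 4 log2 fold changes in the authors' deposited table were -1.81, -1.69, -1.42 and -0.63. Of these 4 sites, 3 had mean counts from 2.35 to 2.99, too low for the authors to give an adjusted p, and the last was not called. Against the gland the site at 7.08 kb from the lower end of the span stood at 0.62 in the wing and 2.94 in the leg. The labels do not say which legs were taken, and the haltere disc is not named in them.

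Leg-biased sites also lay near disco-r and hth, both among the leg identity genes. The site 2763 bp outside disco-r, a zinc finger gene of the disco family, was 5.71-fold higher in the leg (-2.51, SE 0.72, adjusted p = 0.03 in the authors' deposited table). Its call was lost after centring (adjusted p = 0.0519), and 2 further sites at disco-r had values of -1.51 and -1.28 that were not called. The site 169 bp outside hth, a homeodomain gene that keeps its partner Exd in the nucleus and marks the proximal leg, had -1.76 (SE 0.52, adjusted p = 0.0406) in the authors' deposited table. This call, too, was lost after centring (adjusted p = 0.0818). The 9 other sites within 5 kb of hth lay between -0.68 and 0.54, and none was called. The hth sites are drawn in the plot of sites along 6 genes. Any contrast there between the end of the span and its interior rests on the called site alone and was not tested.

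In the homeobox gene OdsH, 2 sites 682 bp apart were called, at -2.39 (SE 0.63, adjusted p = 0.0137) and -1.79 (SE 0.47, adjusted p = 0.0152) in the authors' deposited table. The third OdsH site, at -1.54, was not. A site 4322 bp outside Wnt6, a gene of a secreted Wnt ligand, was 2.91-fold higher in the leg (-1.54, SE 0.43, adjusted p = 0.0254 in the authors' deposited table), a call lost after centring. It stood above the gland in both discs, at 1.71 in the wing and 3.25 in the leg. The largest leg-biased value of the table lay away from coding genes, at chrX:8729490-8729610. It was 7.68-fold higher in the leg (-2.94, SE 0.64, adjusted p = 0.00146 in the authors' deposited table). The nearest coding span, CG1789, was 8047 bp away. The other leg-biased site with no coding gene within 5 kb, at chr2L:3596181-3596401, was 7933 bp from odd, a zinc finger gene active at leg joints. Its value was -1.79 (SE 0.49, adjusted p = 0.0254 in the authors' deposited table). Centring ended this call (adjusted p = 0.0542).

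Further leg-biased sites lay outside the gene lists. The smallest adjusted p among leg-biased sites belonged to m (miniature), which encodes a zona pellucida domain protein of the apical extracellular matrix. It was 5.67-fold higher in the leg (-2.50, SE 0.38, adjusted p = 6.41e-08 in the authors' deposited table). Its leg supernatant peak had a fold enrichment of 15.3, with no wing peak. Sites were also called in tyn (-1.95) and 3227 bp outside nyo (-2.25). The nyo call was lost after centring. In osp the value was -1.89 (SE 0.39, adjusted p = 0.000481 in the authors' deposited table). Dyb, the fly dystrobrevin gene (-1.87), had a called site as well, and this call was lost after centring. In Ptip, a gene of a histone methyltransferase complex, the value was -2.49 (SE 0.61, adjusted p = 0.00964 in the authors' deposited table). Known mostly by number, CG30114 (-2.28), CG30089 (-2.21), CG7991 (-2.18), CG6398 (-1.86) and CG5888 (-1.73) had called sites, as did drn (-1.56) and the overlapping Gint3 and CG42306 (-1.78). Those in CG7991, CG5888 and Gint3 were lost after centring. At CG30089 4 of 5 sites within 5 kb were positive. The site 2354 bp outside CG34347 was 4.31-fold higher in the leg (-2.11, SE 0.40, adjusted p = 8.63e-05 in the authors' deposited table), with fold enrichments of 5.23 in the wing and 28.2 in the leg supernatant list.

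Among the 4 leg-biased sites with a peak in both supernatant lists, CG34347 and Glg1 lay near the leg-biased median, while psq and CG17834 had smaller differences. The site in psq, a BTB-domain transcription factor gene, had fold enrichments of 12.7 in the wing and 32.2 in the leg supernatant list. It was 2.12-fold higher in the leg (-1.08, SE 0.27, adjusted p = 0.0103 in the authors' deposited table). Centring moved it to an adjusted p of 0.0526. In CG17834 the value was -1.36 (SE 0.33). In brat, a growth-suppressing translational repressor gene, 1 of 20 sites was called, with a peak in the leg supernatant list alone (-1.50, SE 0.38, adjusted p = 0.0106 in the authors' deposited table). The other brat sites lay on both sides of 0, with 11 positive and 9 negative values in all.

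**Figure D2:**
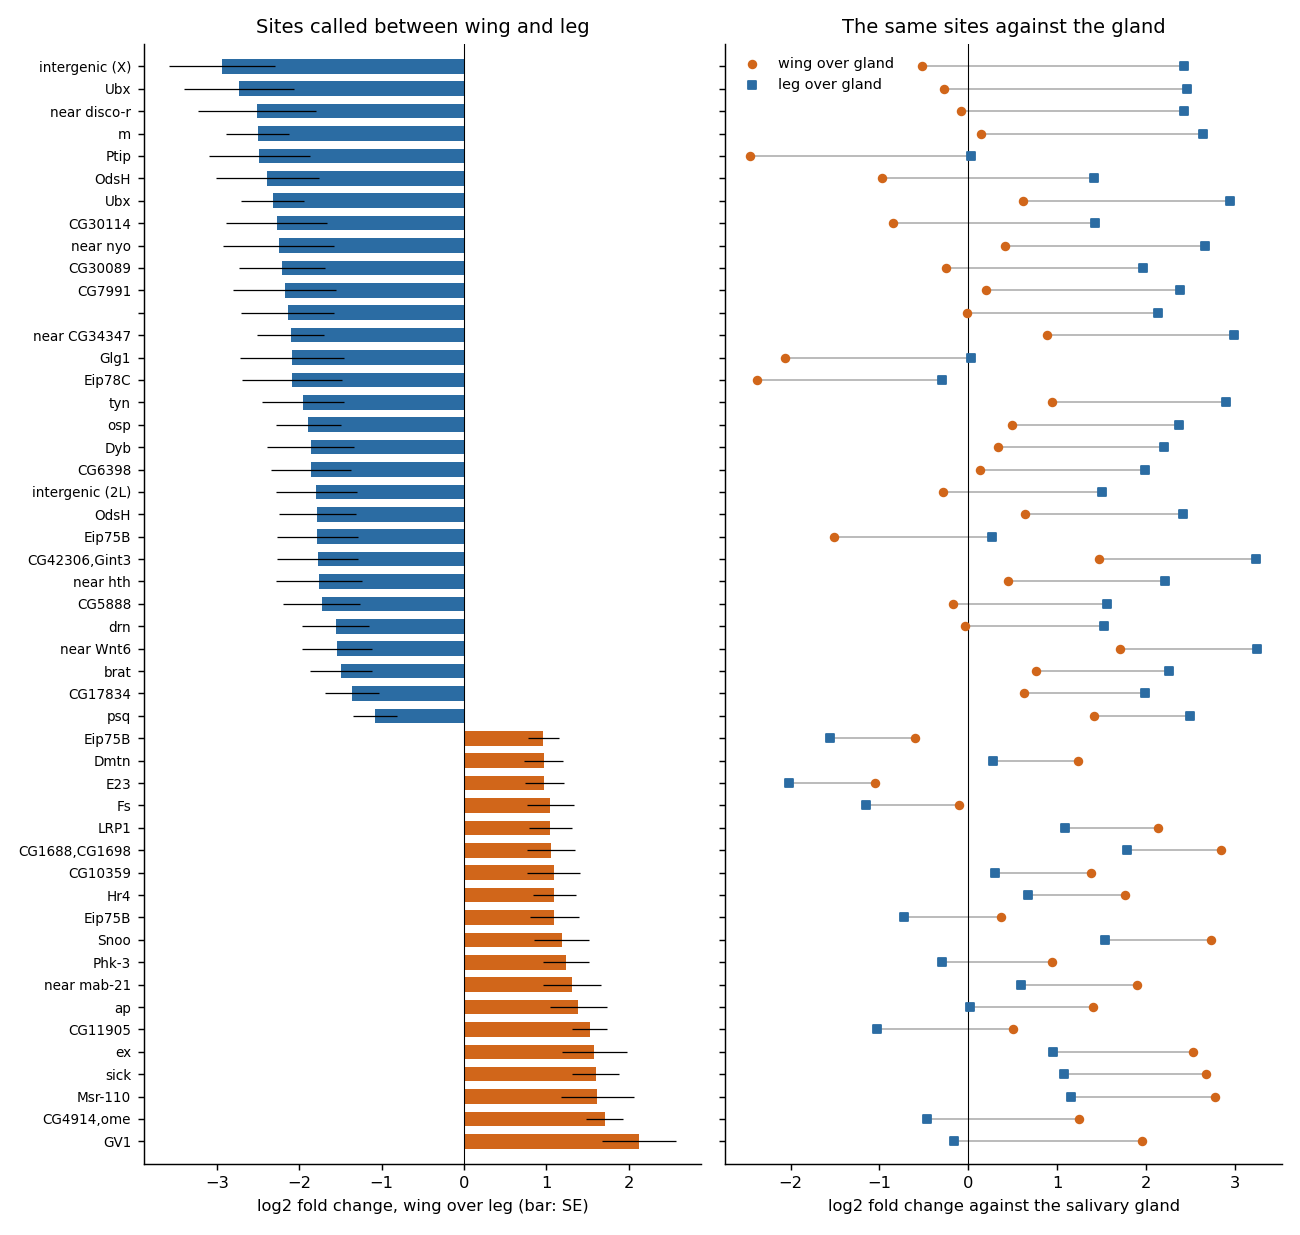
Left, log2 fold change (wing over leg) of the 49 called sites with bars of 1 SE, blue for higher in the leg and orange for higher in the wing (1 site has no name on the axis). Right, wing over gland (circles) and leg over gland (squares) at the same sites. Most leg-biased sites sit near 0 in the wing and above 1 in the leg, with Ptip, Glg1, Eip78C and Eip75B set apart on the left.

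Sites higher in the wing included the dorsal selector gene of the wing, ap, which encodes a LIM-homeodomain protein. Its site at chr2R:5727148-5727398, 252 bp inside the end of the gene span, was 2.62-fold higher in the wing (1.39, SE 0.34, adjusted p = 0.00964 in the authors' deposited table). The adjacent ap site had 1.86 (SE 0.60, adjusted p = 0.0868 in the authors' deposited table). Both ap sites had a wing and no leg supernatant peak. Against the gland the called site stood at 1.41 in the wing and 0.02 in the leg.

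A wing-biased site also lay in ex, an upstream component of the Hippo growth pathway. It lay 5569 bp inside the span of ex and was 3.00-fold higher in the wing (1.58, SE 0.39, adjusted p = 0.00964 in the authors' deposited table), with a fold enrichment of 12.1 in the wing supernatant list and no leg supernatant peak. A second site, 1104 bp outside ex, had peaks in both lists and a value of 0.42 that was not called. Outside the lists, wing-biased sites lay in Snoo, the fly Sno gene (1.19, SE 0.33, adjusted p = 0.0333 in the authors' deposited table). The same was so in Fs, which encodes follistatin (1.05, SE 0.29, adjusted p = 0.0254 in the authors' deposited table). Of 9 Snoo sites within 5 kb, 7 were positive and 2 negative, and of 5 Fs sites 2 were positive and 3 negative.

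The largest wing-biased values lay in GV1, where 1 site was 4.35-fold higher in the wing (2.12, SE 0.45, adjusted p = 0.00122 in the authors' deposited table). A neighbouring GV1 site at 1.72 just missed the threshold (adjusted p = 0.0504 in the authors' deposited table). The smallest adjusted p belonged to a site shared by ome, a dipeptidyl peptidase gene, and CG4914 (1.71, SE 0.23, adjusted p = 2.58e-10 in the authors' deposited table). Next in the authors' deposited table came CG11905 (1.52, SE 0.22, adjusted p = 3.19e-09) and sick (1.60, SE 0.29, adjusted p = 1.63e-05). The ome site had a peak in all 6 lists, with fold enrichments of 26.7 in the wing and 9.57 in the leg supernatant. At Msr-110 all 3 sites were positive, from 0.94 to 1.62, and 1 was called. The 4 sites of LRP1, a lipoprotein receptor gene, were positive as well, from 0.47 to 1.05, with 1 called. Wing-biased sites were also called in Phk-3 (1.24), 3595 bp outside mab-21 (1.31), in CG10359 (1.09), in the overlapping CG1688 and CG1698 (1.05) and in Dmtn (0.97). At Dmtn 4 of 6 sites within 5 kb were negative.

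The gland libraries, which the next values share, place the called sites relative to another tissue. The wing against leg value nearly equals wing over gland minus leg over gland, and the sites were chosen by it. At leg-biased sites it was -1.08 or lower, so leg over gland had to exceed wing over gland there. The gap between the gland values is therefore no separate evidence, but the choice did not fix which disc lay near the gland. At the 30 leg-biased sites the median log2 fold change was 0.14 for wing over gland and 2.23 for leg over gland. At 26 of them the leg value exceeded 1, as it did at 1403 of all 3463 sites. At 23 of them the wing value was within 1 of 0, as it was at 1235 of all 3463 sites. The sites at Ptip, Glg1, Eip78C and the leg-biased Eip75B site did not follow this pattern. In these 4, leg over gland lay between -0.29 and 0.27 and wing over gland between -2.45 and -1.51, so the wing had the lowest value. Glg1 had a gland supernatant peak. The Ptip, Eip78C and Eip75B sites had no gland peak in either fraction, so binding in the gland is not shown there. At the 19 wing-biased sites the medians were 1.41 for wing over gland and 0.27 for leg over gland. A gland supernatant peak was present at 8 of them (42.1%), at 1 of the 30 leg-biased sites (3.33%) and at 32.7% of all sites. At E23 and at the called Eip75B site with the highest mean count, the gland was higher than both discs (wing over gland -1.04 and -0.60, leg over gland -2.02 and -1.56). At Fs wing over gland was -0.10 and leg over gland -1.15.

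At genes of the ecdysone response the discs differed at a few sites among many. The list holds 36 genes, and 26 of them had 214 sites within 2 kb. Of these sites 4 were higher in the wing and 3 higher in the leg, beside 0.571% and 0.902% of all tested sites. Their median log2 fold change was -0.0039, against -0.18 over all sites, with 106 positive and 108 negative values. Called wing-biased members were Hr4, Eip75B at 2 sites, and E23. Leg-biased members were Eip75B, Eip78C and the site in Glg1 that lies within 2 kb of the nuclear receptor gene Hr78. The Glg1 value was -2.09 (SE 0.63, adjusted p = 0.0497 in the authors' deposited table), a call that centring ended (adjusted p = 0.0825).

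Eip75B, a nuclear receptor gene of the first tier, was the only gene among the 163 with at least 4 sites within 2 kb that held calls in both directions. Of its 59 sites within 5 kb, 26 were positive and 33 negative. In the authors' deposited table the site 23.3 kb from the lower end of its span was 3.44-fold higher in the leg (-1.78, SE 0.50, adjusted p = 0.03), at a mean count of 5.18, and was no longer called after centring (adjusted p = 0.0663). The sites at 50.7 and 61.3 kb in the authors' deposited table were 2.14-fold and 1.95-fold higher in the wing (1.10, SE 0.30, adjusted p = 0.0257, and 0.96, SE 0.18, adjusted p = 8.63e-05). The wing-biased ones had peaks in both supernatant lists, with fold enrichments of 13.0 and 5.25 at the first and 28.3 and 22.1 at the second, in wing and leg. The strongest Eip75B peaks, of 72.4 in the wing and 81.7 in the leg supernatant list, lay at other sites, with log2 fold changes of 0.21 and 0.23 that were not called.

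Hr4, another nuclear receptor gene of the cascade, showed the same arrangement of a called site beside stronger uncalled ones. The called Hr4 site, 29.8 kb from the lower end of the span, was 2.14-fold higher in the wing (1.10, SE 0.26, adjusted p = 0.00643 in the authors' deposited table). Its fold enrichments were 15.4 in the wing and 9.27 in the leg supernatant list. The Hr4 site at 6.30 kb reached 95.8 and 123 in these lists, and its fold change was 0.04 (SE 0.26). In Eip78C the called site had -2.09 (SE 0.61, adjusted p = 0.0412 in the authors' deposited table, lost after centring). Its leg peak had a fold enrichment of only 2.35, and it had no wing peak, whereas the Eip78C sites with the strongest wing peaks had values of 0.67 to 0.85 and were not called. E23, an ABC transporter gene that limits the ecdysone response, had 1 called site of 5 within 2 kb (0.98, SE 0.24, adjusted p = 0.0093 in the authors' deposited table).

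No site was called at most other genes of the cascade. EcR itself had 8 sites between -0.58 and 0.62, Eip74EF 18 between -0.94 and 1.22, and br 13 between -1.78 and 0.51. The hormone-responsive genes Hr3, vri and Kr-h1 had 9, 12 and 9 sites with none called. At Hr39 all 4 sites were positive, from 0.37 to 0.49, and not called. The juvenile hormone receptor gene gce had 3 sites, all negative, from -0.69 to -0.54, and not called.

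**Figure D3:**
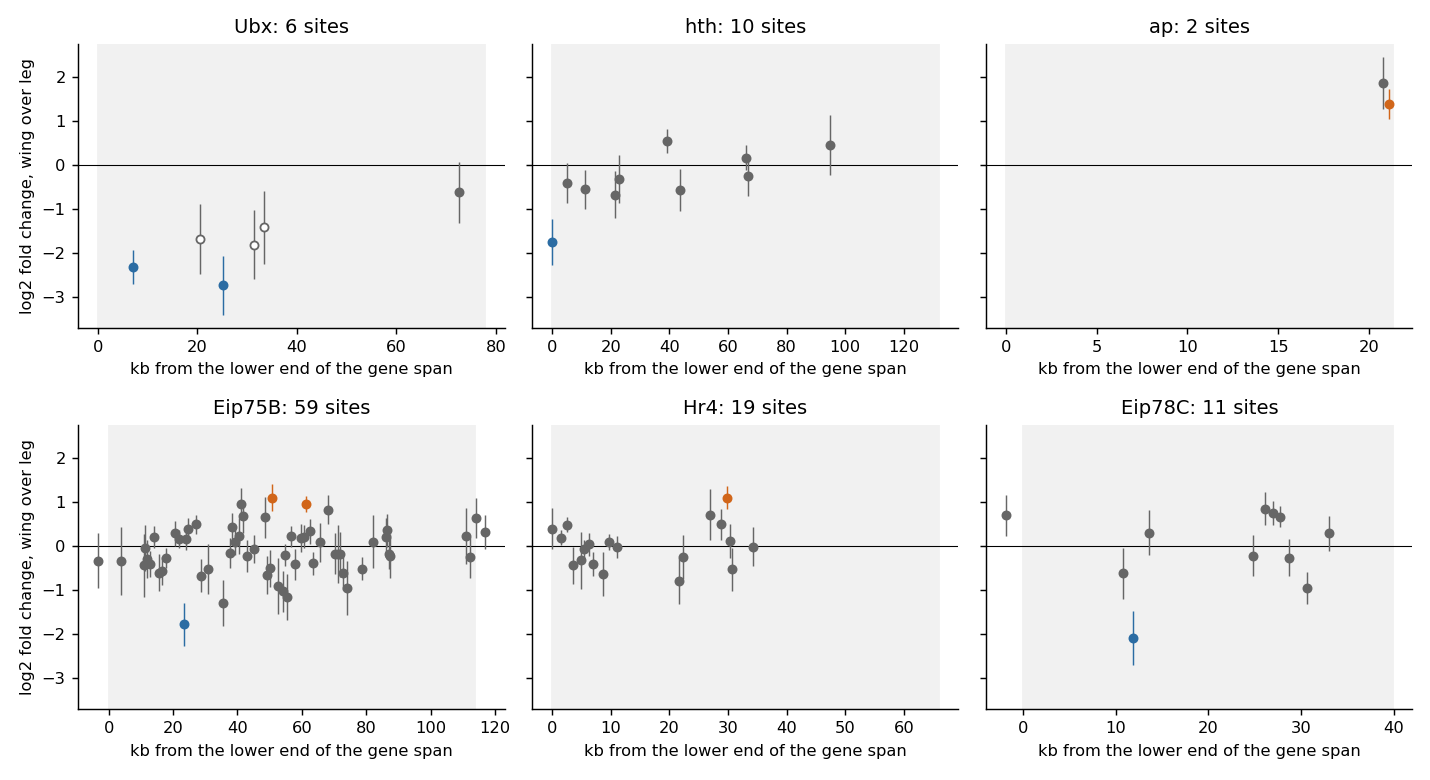
Log2 fold change (wing over leg, bars of 1 SE) of every site within 5 kb of 6 genes, by distance in kb from the lower end of the gene span (grey). Orange and blue mark sites called higher in the wing and in the leg, open circles sites without an adjusted p. All Ubx sites have a supernatant peak in the leg list alone and lie below 0. Sites of Eip75B, Hr4 and Eip78C scatter around 0 with 1 to 3 called.

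The strongest peaks of both discs fell on sites that were not called. The 10 strongest supernatant peaks of the wing and of the leg reached fold enrichments of 111 and 160. They lay at Blimp-1, Hr4, Eip75B, vri, Hsp27 and Wdr81 and at sites with no coding gene within 5 kb. Near Blimp-1, a transcriptional repressor gene that times the ecdysone response, the peak reached 111 in the wing and 156 in the leg list. The fold change there was -0.11 (SE 0.33, adjusted p = 0.941 in the authors' deposited table). The peak at Hsp27, a small heat shock gene induced by ecdysone, was 59.8 and 90.4, with -0.10 (SE 0.25). Among the strongest pellet peaks were, besides those genes, COX7AL2, CrebA and nAChRalpha3, and their sites lay between -0.36 and 0.07. Fold enrichments from different lists are printed side by side in this text as descriptions. They do not measure a difference between the discs.

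Genes of appendage identity gave isolated calls. Of 34 sites at wing identity and vein patterning genes, 1 was higher in the wing (ap) and 1 higher in the leg (hth), beside 1.47% called of all tested sites, and the median was -0.10. Of 37 sites at leg identity genes the calls were those same 2 sites, since both lists hold ap and hth, and the median was -0.29. Values below 0 without a call stood at Lim1, a LIM-homeodomain gene of the leg (-1.69, SE 0.53, adjusted p = 0.0638 in the authors' deposited table). Another stood at Sp1, a zinc finger gene of leg growth (-2.32, SE 0.70, no adjusted p). Over the leg list 13 values were positive and 24 negative, with uncalled positive ones at dysf (up to 1.05) and bowl (4 of 6 sites). Over the wing list 17 were positive and 17 negative, with uncalled values below 0 at bi (down to -1.91) and ct (-1.36). Dll, the distal leg gene that is also active at the wing margin, had 1 site, at 1.12 (SE 0.52, adjusted p = 0.316 in the authors' deposited table). The 8 sites at Hox genes, 6 at Ubx and 2 at Antp, of which 5 had an adjusted p, gave 2 leg-biased calls, both at Ubx, and a median of -1.55. The Antp values were -1.14 and 0.63.

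The signalling lists held 1 call, at ex, where 1.47% of all tested sites were called. None of 23 sites at Dpp and Hedgehog genes (median 0.05), 40 at Wnt and planar polarity genes (-0.33) and 44 at Notch and EGFR genes (-0.47) was called. The ex site was the call among 21 sites of the Hippo pathway (-0.11). The nearest misses of the threshold in the authors' deposited table were a site in tkv, a Dpp receptor gene (1.09, SE 0.32, adjusted p = 0.0504), and S (Star), an EGFR pathway gene (-1.75, SE 0.54, adjusted p = 0.059). At N, the Notch receptor gene, 4 sites had values from -1.34 to -0.77, and at aop, an EGFR-regulated repressor gene, 6 sites had values from -0.93 to -0.24. No N or aop site was called.

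At genes of the tissue changes that both discs go through no site was called, but lists this short would hold few calls at the 1.47% of the whole table. At 35 sites of disc eversion and matrix genes the median was 0.01, and the Stubble protease gene Sb came closest (1.11, SE 0.33, adjusted p = 0.0504 in the authors' deposited table). The 24 sites of cell death and autophagy genes had a median of 0.12, the 14 of cell cycle genes 0.33, the 3 of cuticle genes 0.33 and the 6 of ecdysone synthesis and uptake genes -0.05. Of the cell cycle sites, 10 belong to E2f1, a gene of the cell death list as well, where 9 were positive, up to 1.10 (SE 0.33, adjusted p = 0.0541 in the authors' deposited table). Together the lists covered 501 of all 3463 sites, with 6 called higher in the wing and 6 higher in the leg. The other 37 of the 49 calls lay more than 2 kb from any gene of the lists, as did most sites of the table. The disco-r and Wnt6 sites, between 2 and 5 kb from list genes, are among these 37.

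**Figure D4:**
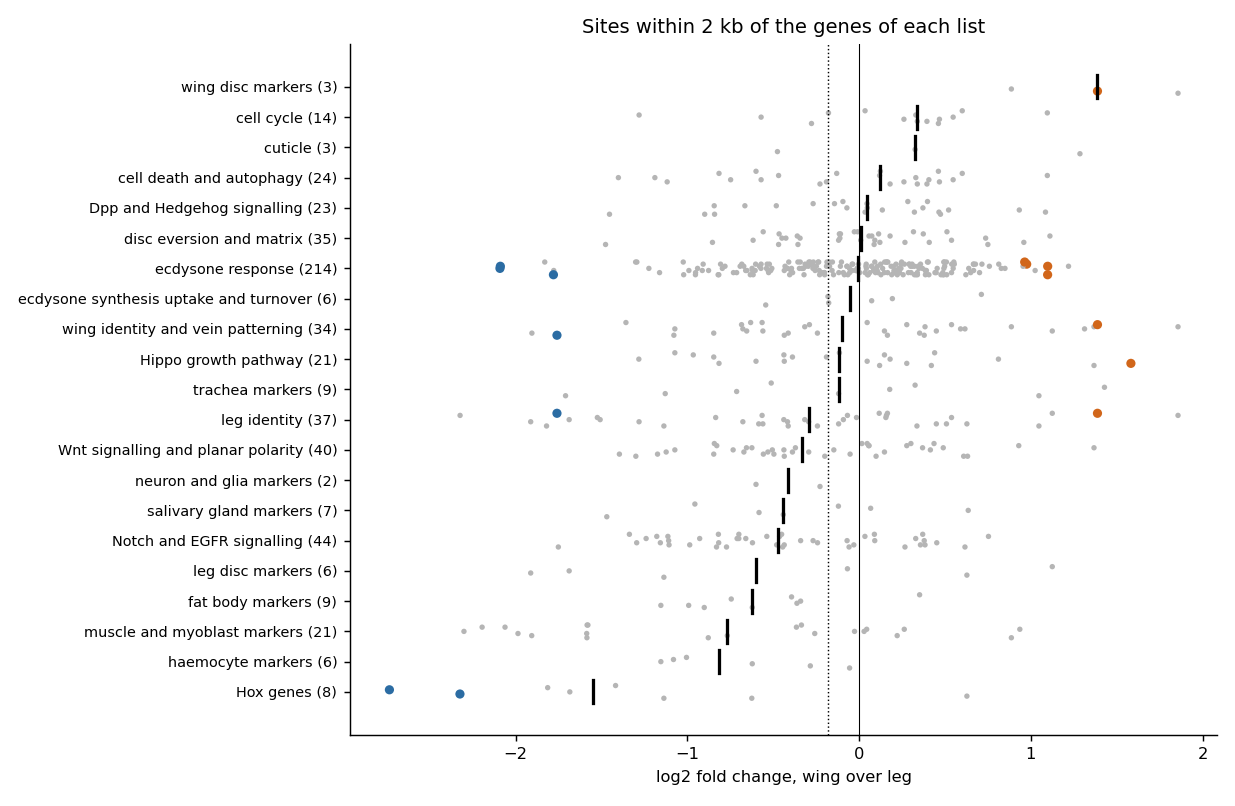
Log2 fold change (wing over leg) of the sites within 2 kb of the genes of each list, with the number of sites in parentheses, the list median as a black bar, and called sites in orange (wing) and blue (leg). The dotted line is the median of all sites. Hox genes lie lowest at -1.55 and the 3 wing disc marker sites highest at 1.39.

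Binding is no measure of expression, so marker genes could not check the tissue labels directly. Of the wing disc markers, ap and vg had 3 sites, all positive (median 1.39, 1 called). Within 5000 bp they had 5 sites, 3 positive and 2 negative, down to -1.27, with a median of 0.89. Of the leg disc markers, 4 of 9 genes had 6 sites, with a median of -0.60 and no call. That median was -1.41 inside spans and -0.068 within 5000 bp. Markers of other cell types that dissected discs can carry had medians of -0.77 for muscle and myoblasts (21 sites), -0.81 for haemocytes (6), -0.62 for fat body (9), -0.12 for trachea (9), -0.41 for neurons and glia (2) and -0.44 for salivary gland (7). Of the 21 muscle sites 6 lie at w, and without them that median was -0.26. None of these sites was called, and the 2 neuron and glia sites had no adjusted p. The part of such cells in the leg-biased sites was not tested.

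Many peaks were listed for both discs, and shared peaks were the stronger ones of each list. Of the wing supernatant peaks, 958 of 1442 (66.4%, exact 95% interval 63.9 to 68.9) overlapped a leg supernatant peak, and of the leg peaks 975 of 1596 did (61.1%, 58.6 to 63.5). In the pellet the shares were 48.2% of wing peaks and 75.7% of leg peaks, and 55.9% and 58.1% when both lists were cut to 1010 peaks. Median fold enrichment was 8.18 for shared and 4.84 for unshared peaks in the wing supernatant list, and 8.95 and 5.09 in the leg list. A peak listed for 1 disc was seldom a called difference. Of 461 sites in the wing supernatant list alone, 437 had an adjusted p and 3 were called, and of 600 in the leg list alone 552 had one and 25 were called. With an overlap of 50% of site and peak the wing calls of this class numbered 10 of 523 and the leg calls 26 of 578. Median log2 fold changes were 0.43 and -0.82 in these classes and 0.04 where both lists had a peak.

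The fractions were not alike in the discs. Of the wing supernatant peaks 70.8% overlapped a wing pellet peak, and of the leg supernatant peaks 38.4% overlapped a leg pellet peak. At the 150 sites in both wing lists and neither leg list the median was 0.63, with 2 called. At the 42 sites in both leg lists and neither wing list the median was -1.41, with 8 called. The 860 sites with a peak in gland lists alone, which neither disc list holds, had a median of -0.42 and no call, so sites without a disc peak also leaned to the leg.

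**Figure D5:**
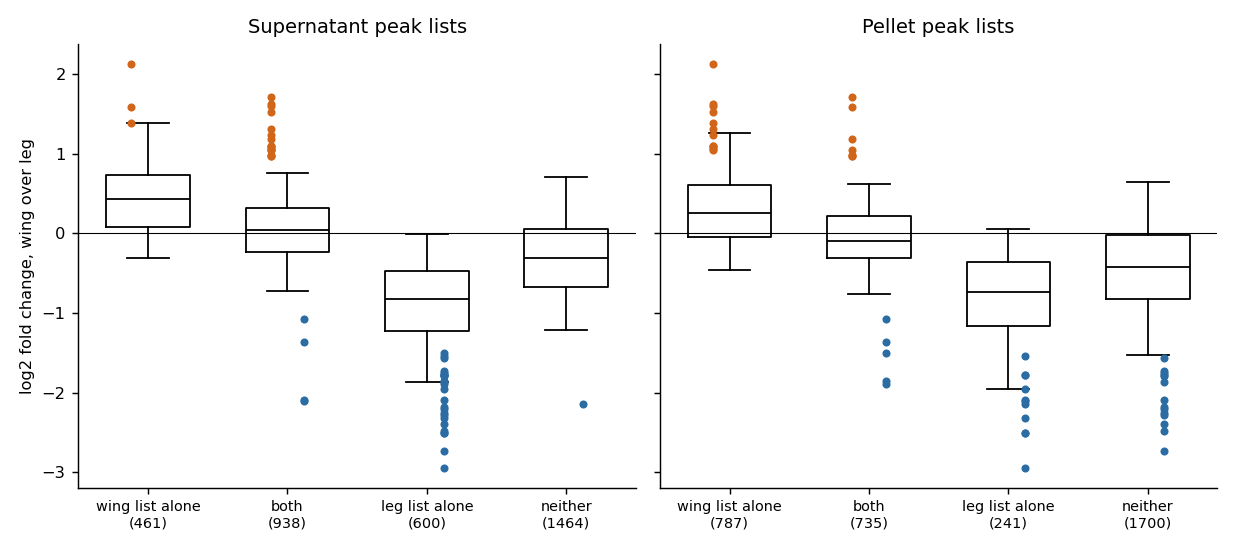
Log2 fold change (wing over leg) of sites by whether the wing list, the leg list, both or neither held a peak, for supernatant (left) and pellet (right) lists, with the number of sites in parentheses. Boxes give quartiles and median, whiskers the 5th to 95th percentile, and dots the called sites. Supernatant medians run from 0.43 (wing list alone) through 0.04 (both) to -0.82 (leg list alone).

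Called sites lay mostly inside genes. The centre was inside a coding gene span at 18 of 19 wing-biased sites (94.7%, exact 95% interval 74.0 to 99.9) and at 23 of 30 leg-biased sites (76.7%, 57.7 to 90.1). Over all sites the share was 62.6%. Within 500 bp of an end of a span lay 10.5% of the wing-biased, 10.0% of the leg-biased and 11.6% of the uncalled sites. Median widths were 326 bp at wing-biased, 218.5 bp at leg-biased and 148 bp over all sites. Of 9 wing-biased sites with another site within 2 kb, 8 had that neighbour on the same side of the arm median, as did 10 of 14 leg-biased sites and 60.1% of all sites.

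By chromosome the table was not centred alike. The median log2 fold change was -0.31 on X and -0.15 on the autosome arms. Calls were 2 wing and 7 leg among 593 tested sites on X, and 17 and 23 among 2665 on the autosome arms. Of all tested sites 0.571% and 0.902% were called in these directions. The 67 sites on Y, a chromosome that females normally lack, had a median of 0.83, and 62 of them were in a wing list, 15 in a leg list and 0 in a gland list. No Y site was called. The part of sex composition in the values on X and Y was not tested.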

How the data were processed

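EcR binding was measured by CUT&RUN. Alignment tools in the submitters' processing notes are Bowtie2 2.3.4.1, Picard 2.2.4 and SAMtools 1.9, and analysis tools MACS2 2.1.2, bedtools 2.26, DESeq2 and R 3.5.2, with the build dm6 and no settings. By their file names, the peak lists come from merged replicates with trimmed reads, no duplicates and fragments from 20 to 120 bp, and peak names point to merged wing IgG as the control, which no label states. Per the labels' protocols, each library began with 90 or more wings or legs and used the Takara ThruPLEX kit.

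Peak lists hold, as deposited, the linear fold enrichment, the −log10 of the q-value, and, as an other unit, the offset of the summit in bp. Site tables hold, as deposited by the authors, the mean normalised read count (a signal over all 3 tissues), the log2 fold change with its standard error, and the Wald statistic, which is a score. Its p-value, plain and adjusted, was deposited by the authors too, and DESeq2 is named in the submitters' processing notes. The labels tie the table to anti-Flag libraries of both fractions. The sources used here do not give how fractions entered the model. The mean was identical in all 3 tables at 3463 sites, and the wing against leg fold equalled the difference of the gland folds (median difference near 0, at most 0.275). Depth per library is unknown, so precision is the deposited standard error.

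Without counts for single libraries, a count test as planned could not be run, and the authors' adjusted p (threshold 0.05) took its place. Sites without an adjusted p (136) could not be called. Deposited site starts count from 0 and were raised by 1. Overlap was at least 1 bp, and shares have exact (Clopper-Pearson) 95% intervals for which peaks count as independent and only counting error is covered. For centring, the median over the standard error was taken off the Wald statistic, followed by normal p-values with Benjamini-Hochberg adjustment over all sites with a p, so centred calls are approximate. The centring was tested on simulated data. Nothing says whether replicates were separate dissections, so p-values measure only the spread between these libraries.

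Gene spans came from a RefSeq table of Release 6 (13948 coding genes), which holds no strand or exons. A gene's list sites lie inside its span or within 2000 bp, and names of sites reach to 5000 bp. Of 332 genes in 21 lists, 314 matched by symbol, 17 by another symbol, and 1, iro, was not matched. Named sites were the 15 of each direction with the largest fold change among calls with a mean no lower than the median, 1 per gene, called members of the lists and the 10 strongest peaks of each disc list. Other called sites, values just missing the threshold and the wing and leg sites of w and Y were chosen after their values were seen. Members and lists were chosen with earlier results of these data known. 1 called site is counted but not reported by name here. No sequence was used. Python 3.11.15, pandas 2.3.3, numpy 2.4.6, scipy 1.17.1 and matplotlib 3.10.9 were used.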

Additional observations from a re-analysis of the deposited data

How the results depend on the processing

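Counts of called sites moved with the threshold and with centring. Sites higher in the wing numbered 11 and sites higher in the leg 9 at an adjusted p of 0.01, and 39 and 56 at 0.1. Centring on the chromosome arms gave 48 and 17. Centring on the median of the 860 sites of gland lists alone (-0.42), an alternative chosen after seeing the data, gave 128 and 9. Restricting the sites to means no lower than the median left 16 leg-biased and all 19 wing-biased calls. A minimum log2 fold change of 1, chromosome arms only, autosome arms only (also chosen after seeing the data) and adjustment over all sites kept both counts within 1.5 times. No called site changed direction under any of these settings, but none could. Only the centrings shift fold changes, and the larger centre (-0.42) is smaller in size than every called value (0.96 or more). Centring on the arms ended 13 leg-biased calls and no wing-biased call, and the 9 leg-biased calls left under both centrings included both Ubx sites, m, osp, Ptip and an OdsH site.

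Overlap shares moved with its definition. For wing and leg supernatant peaks they were 56.4% and 51.0% with an overlap of 50% of both peaks, 75.6% and 71.5% for peaks with a −log10 q of 10 or more, and 63.3% and 64.5% in equally long lists. For the pellet they were 38.7% and 59.2%, 53.6% and 79.8%, and 55.9% and 58.1%. With pellet lists, wing-biased calls numbered 7 in both lists and 12 in the wing list alone, and leg-biased calls 11 in the leg list alone and 14 in neither. With an overlap of 50% of site and peak, wing-biased calls numbered 8 in both supernatant lists and 10 in the wing list alone. The median of the leg disc markers was -1.41 inside spans and -0.068 within 5000 bp, and 16 of 21 list medians kept their sign after centring on the arms. That of the wing disc markers was 1.39 inside spans and 0.89 within 5000 bp. Uncalled sites within 1000 bp of a span end were 19.0%. The cause of these shifts was not tested.

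No paired analysis was possible because the deposited tables give no values per library. For the same reason no replicate was left out in turn. The planned search for EcR response elements was not run, since no genome sequence was used here.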

Other observations

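At w (white), which lies inside the span of kirre on X and is named in the genotype, all 6 sites within 2 kb were below 0, from -2.30 to -1.58, with a median of -1.95. None was called in the authors' deposited table, where their adjusted p-values ran from 0.0558 to 0.280, but all 6 had an unadjusted p under 0.05. Of the 6 sites, 5 had a leg pellet peak, and none had a supernatant peak in either disc or a wing pellet peak. Against the gland, whose libraries both values share, the medians were -1.21 for the wing and 0.53 for the leg. The 6 sites are also counted for kirre, a myoblast fusion gene of the muscle list. Without them the median of that list was -0.26 over 15 sites, against -0.77 over 21.

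Among the 163 coding genes with at least 4 sites within 2 kb, 17 had all sites below 0 and 4 had all above 0. Relative to the median of the chromosome arms these numbers were 9 and 14. Of the 17, the lowest medians were those of w, Ubx (-1.75) and NFAT, the fly NFAT transcription factor gene, where 5 sites lay between -1.78 and -0.79. All Ubx sites had a supernatant peak in the leg list alone, a class in which 30 of 600 sites were above 0. The 4 genes with all sites above 0 were T48, Hr39, zip, the non-muscle myosin heavy chain gene, and LRP1, with medians from 0.40 to 0.74. On Y, 50 of 67 sites were above 0, 3 had an unadjusted p under 0.05, and the lowest adjusted p was 0.280.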
